A study of Mus musculus with 48 samples.

Results

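The chaperone genes described here are the members of the HSP90, HSP70, HSP110, J protein and small heat shock protein families, the subunits of the chaperonins and the exchange factor Hspbp1. They were chosen by gene symbol, by a rule set with earlier results of these data known. Of the 55487 genes in the deposited table, 85 have such a symbol once 3 pseudogene entries are left out. By the compartment in which each protein is known to work, 44 belong to the cytosol and nucleus, 13 to the endoplasmic reticulum (ER) and 8 to the mitochondrion, and 20 were placed in none of these. The 85 entries carry 84 symbols, because Hspa14 stands on 2 Ensembl identifiers. Of the 85, 67 had enough counts to be tested at every level: 34 cytosolic or nuclear, 13 ER, 8 mitochondrial and 12 others.

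Chaperones bind unfolded or partly folded proteins and use cycles of ATP binding to release them. HSP70 proteins take clients from J proteins, which stimulate their ATPase, and pass through nucleotide exchange factors such as the HSP110 proteins, while HSP90 and the ring-shaped chaperonin TRiC act on more selected clients such as kinases, actin and tubulin. The cytosol, the ER and the mitochondrial matrix each hold their own HSP70 and partners. When unfolded proteins accumulate, the cytosolic set is induced through heat shock factor 1, the ER set through the unfolded protein response, and many chaperones also meet the nascent chain at the ribosome.

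Ba/F3 cells, described as murine pro-B cells, need interleukin 3 and were grown in RPMI with 10% fetal calf serum and 1 ng/ml interleukin 3. CRISPR-Cas9 clones of 8 genotypes were compared, with 3 clones each: wild type (WT), the amino acid changes P131S and H137Y of Rps15 and R98S of Rpl10, loss of 1 allele of Rpl11 (Rpl11+/-), of Rpl5 (Rpl5+/-) or of Rpl22 (Rpl22+/-), and loss of both alleles of Rpl22 (Rpl22-/-). The labels give the amino acid changes as R98S/R98S, P131S/P131S and H137Y/H137Y, although the RNA-seq titles of the Rps15 P131S clones write the change once. All genotypes, WT included, received 0.1 mg/ml cycloheximide for 1 min before lysis. Each lysate was divided into poly(A) RNA-seq and ribosome footprints of 28 to 30 nt, so 24 clones gave 48 libraries. Rpl5, Rpl11, Rpl22 and Rpl10 encode proteins of the large ribosomal subunit and Rps15 one of the small subunit. A genotype is represented by 3 clones of 1 line, and every comparison with WT uses the same 3 WT clones. P-values measure the spread between these clones.

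Library totals ran from 13029073 to 38258559 counts for RNA and from 15598994 to 72044439 for footprints, and the chaperone genes held 1.67% to 2.07% of RNA counts and 2.61% to 3.76% of footprint counts. In RNA the share was 1.84% to 2.07% in Rps15 P131S, 1.77% to 1.87% in Rps15 H137Y, 1.75% to 1.86% in Rpl10 R98S and 1.7% to 1.75% in WT, and the highest value was that of P131S clone 20. Of the markers of the labelled cell type, Csf2rb, the common receptor chain for interleukin 3, lay between 450 and 1720 CPM of RNA (counts scaled by library size) and Il3ra between 25.6 and 35.1, while Kit was 0 in all 24 RNA libraries. Their sum, mostly Csf2rb, was 507 to 604 CPM in WT and was not raised in the Rps15 genotypes alone. H137Y clones held 801 to 1438 CPM and P131S clones 1357 to 1752. Also wholly above WT were Rpl11+/- at 618 to 1088, which overlapped H137Y, Rpl22+/- at 657 to 868 and Rpl5+/- at 723 to 762. Rpl22-/- at 476 to 611 and Rpl10 R98S at 524 to 553 overlapped WT. B lineage markers were low: Cd79b lay between 3.34 and 9.91 CPM, Pax5 reached 0.119, Ebf1 was 0 in 22 libraries and Rag1 was 0 in 23. Summed over 7 pro-B and B cell markers, Rps15 P131S clones held 3.81 to 5.07 CPM and WT 6.22 to 10.2. The sum of 5 myeloid markers lay wholly above WT in Rps15 H137Y and overlapped WT in Rps15 P131S. It was 24.7 to 90.8 CPM in Rps15 H137Y and 6.89 to 58.9 in Rps15 P131S, against 1.77 to 7.99 in WT and at most 20.4 elsewhere. The highest values of the single genes in any RNA library were 68 CPM for Lyz2, 15.5 for Mpo, 6.86 for Itgam, 3.24 for Csf1r and 0.201 for Elane. The erythroid Hba-a1 lay at 29.2 to 228 CPM in Rps15 H137Y and 50.5 to 66.2 in Rpl11+/-, against 15.4 to 41.5 in WT. Of the T cell markers, Cd3g reached 12.9 CPM in Rps15 P131S, while Cd3e was 0 in 23 libraries. The sum of Cd3g and Cd3e ran from 0 to 12.9 CPM over the P131S clones. The part of these markers in the chaperone results was not tested. In bulk libraries, a change in the share of cells and a change in RNA per cell cannot be told apart.

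Stretches of promoter are shown for the chaperone genes that hold a heat shock element or an ER stress element, the binding motifs through which the cytosolic and the ER responses are known to act, because the results below follow these 2 sets. Windows from 250 bases before to 50 after each annotated start were taken from RefSeq (assembly GRCm38.p6), in which 68 of the 84 chaperone symbols were found. A heat shock element of 3 units was searched on both strands as GAA, TTC and GAA, or TTC, GAA and TTC, in that order with 2 free bases (NN) between units. It stood in 0.603% of all 32851 windows and in 6.9% of the 87 chaperone windows, those of Hsph1, Dnajb6, Hspd1 and Hspe1. In Hsph1 the match begins 15 or 36 bases after the annotated start, depending on the window. An element of 4 units, which contains the 3-unit form, stood in 0.0244% of all windows and in 2.3% of chaperone windows, those of Hspd1 and Hspe1. Those genes lie head to head and share the stretch, so it is printed once, on the strand of Hspe1. The ER stress element, searched on both strands as CCAAT, 9 free bases and CCACG, stood in 0.119% of all windows and in 3.45% of chaperone windows, those of Hspa5, Hsp90b1 and Dnajc3. Each stretch is written 5′ to 3′ on the strand of its gene, with the motif in capitals.
Hsph1, chr5:149636266-149636330, minus strand: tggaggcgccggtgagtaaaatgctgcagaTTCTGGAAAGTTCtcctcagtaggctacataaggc
Dnajb6, chr5:29735822-29735894, plus strand: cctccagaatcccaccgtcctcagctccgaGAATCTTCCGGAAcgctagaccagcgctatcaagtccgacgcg
Hspe1 and Hspd1, chr1:55088029-55088106, plus strand: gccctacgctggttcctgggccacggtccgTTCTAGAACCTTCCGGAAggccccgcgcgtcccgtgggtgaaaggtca
Hspa5, chr2:34771995-34772073, plus strand: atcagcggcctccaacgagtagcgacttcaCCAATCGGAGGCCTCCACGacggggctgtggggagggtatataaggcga
Dnajc3, chr14:118937797-118937875, plus strand: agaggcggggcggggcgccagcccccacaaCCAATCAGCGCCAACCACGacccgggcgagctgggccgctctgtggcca
Hsp90b1, chr10:86705503-86705686, minus strand, with 2 matches: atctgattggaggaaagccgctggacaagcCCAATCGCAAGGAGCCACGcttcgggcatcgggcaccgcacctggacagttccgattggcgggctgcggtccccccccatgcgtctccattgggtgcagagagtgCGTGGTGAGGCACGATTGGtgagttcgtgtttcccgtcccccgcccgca
A match describes letters in a window and is not a measured binding site. Elements with a mismatch or outside the window were not searched, so a gene without a match here may still hold one.

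The chaperone genes had the most calls in the 2 Rps15 genotypes. Most cytosolic and nuclear members rose in Rps15 P131S RNA, while fewer than that did in Rps15 H137Y. Levels are given as CPM on library sizes scaled by trimmed mean of M values, changes as log2 with their standard error (SE), and a gene was called when edgeR's quasi-likelihood test gave a Benjamini-Hochberg adjusted p under 0.05 over all genes tested at that level. In Rps15 P131S RNA, 30 of the 67 chaperone genes rose and 11 fell against WT, where 47% of all 12814 genes tested were called, 23.7% higher and 23.4% lower. The median change of the 67 was 0.20 on the log2 scale, beside -0.01 for all genes. The cytosolic and nuclear members gave 22 higher and 2 lower of 34 with a median of 0.26, the ER members 3 higher and 4 lower of 13 with a median of -0.15, and the mitochondrial members 4 higher and 1 lower of 8 with a median of 0.24. Without clone 20, the P131S or WT clone whose omission lowered the count most, 24 rose and 9 fell.

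In Rps15 H137Y RNA, 17 chaperone genes rose and 12 fell, with a background of 41% called, 21% higher and 20% lower. That share is close to the background, and the median of 0.03 stood beside 0.01 for all genes. The cytosolic and nuclear members nevertheless gave 12 higher and 4 lower of 34, with a median of 0.14, while the ER members were even at 4 and 4 of 13 and the mitochondrial members gave 0 higher and 1 lower of 8. Set directly against Rps15 H137Y, Rps15 P131S had 16 chaperone genes higher and 2 lower, against a background of 25.2%, with 12.6% in each direction. These were 11 of 34 cytosolic and nuclear members and 4 of 8 mitochondrial members, all higher in P131S, 1 of 13 ER members, lower in P131S, and 2 of the 12 others, 1 in each direction. That comparison rested on clone 20: without it, 8 of the 67 were called, all of them higher. It gave 0 calls when the fit held these 2 genotypes alone.

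**Figure D1:**
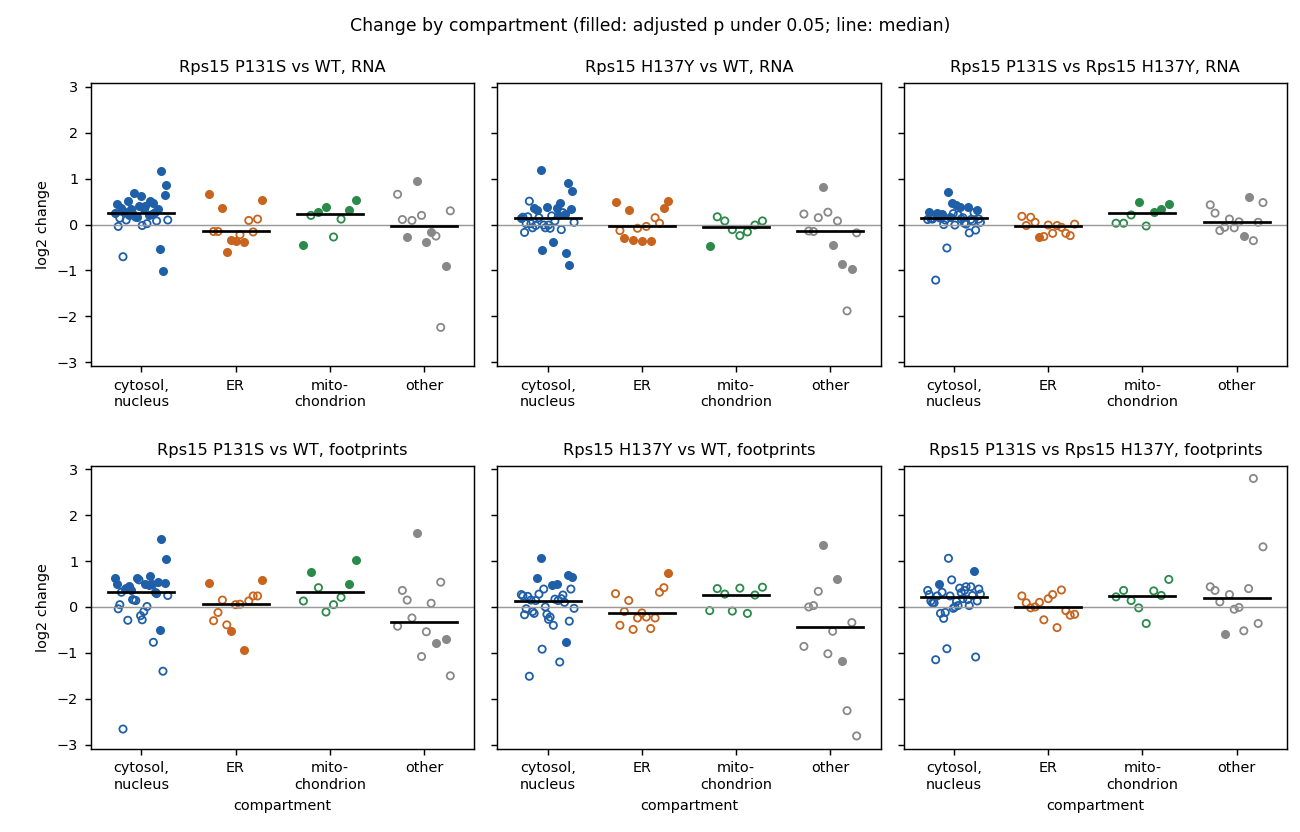
Log2 change in RNA and footprints of each chaperone gene (vertical axis) by compartment (horizontal axis) in Rps15 P131S against WT, Rps15 H137Y against WT and Rps15 P131S against Rps15 H137Y. Each point is 1 gene, filled where called, and the line is the median. In P131S RNA the cytosolic and mitochondrial medians lie at 0.26 and 0.24 and the ER median at -0.15.

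The other genotypes had fewer chaperone transcripts called. In Rpl10 R98S, 6 rose and 1 fell, where 12.9% of all genes were called, 6.82% higher and 6.03% lower. In Rpl11+/-, 8 rose and 4 fell against a background of 11.8%, 5.73% higher and 6.05% lower. Rpl22+/- had 2 called, both higher, against 3.9%, Rpl22-/- had 4, all higher, against 5.27%, and Rpl5+/- had 1, higher, against 1.04%. These counts depended on the fit: with WT and 1 genotype alone in it they were 25 in R98S, 14 in Rpl5+/-, 9 and 8 in Rpl22-/- and Rpl22+/-, and 5 in Rpl11+/-. In the fit of all genotypes these calls repeatedly named 3 genes: Hspa8 in 3 of the 5 genotypes, Hspa5 in 4 and Dnajb1 in 4. These comparisons share their WT clones, so the calls are not independent of one another.

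At the footprint level, 21 chaperone genes rose and 5 fell in Rps15 P131S, where 16.7% of 16217 genes were called, 8.42% higher and 8.28% lower. The cytosolic and nuclear members gave 15 higher and 1 lower of 34 with a median of 0.33, the ER members 2 and 2 of 13 with a median of 0.06, and the mitochondrial members 3 higher and 0 lower of 8 with a median of 0.32. The median of all genes was -0.04. Without clone 20, 14 rose and 1 fell. In Rps15 H137Y footprints, 9 rose and 2 fell against a background of 11.7%, 5.22% higher and 6.44% lower, and the cytosolic and nuclear members made up 6 of the 9. The H137Y count was 5 without clone 2, 6 without WT clone 3 and 6 without WT clone 1. In Rpl10 R98S, 2 rose and 2 fell against 1.62%, and between Rps15 P131S and Rps15 H137Y 3 were called against 4.17%.

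No chaperone gene was called in the footprints of the 4 remaining genotypes, where few genes of any kind were. The background was 0.0123% in Rpl5+/-, 0.074% in Rpl11+/-, 0.253% in Rpl22+/- and 0.105% in Rpl22-/-. An unadjusted p under 0.05 from edgeR's test was reached by 5 chaperone genes in Rpl5+/-, 9 in Rpl11+/-, 14 in Rpl22+/- and 9 in Rpl22-/-. DESeq2 called 0, 3, 2 and 2 in the same order, namely Dnajb1, Hspa8 and Dnaja1 in Rpl11+/-, Hspa5 and Dnajc2 in Rpl22+/-, and Dnajb1 and Hspa5 in Rpl22-/-. Limma voom called Hspa5 in Rpl22-/- and none in the other 3.

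**Figure D2:**
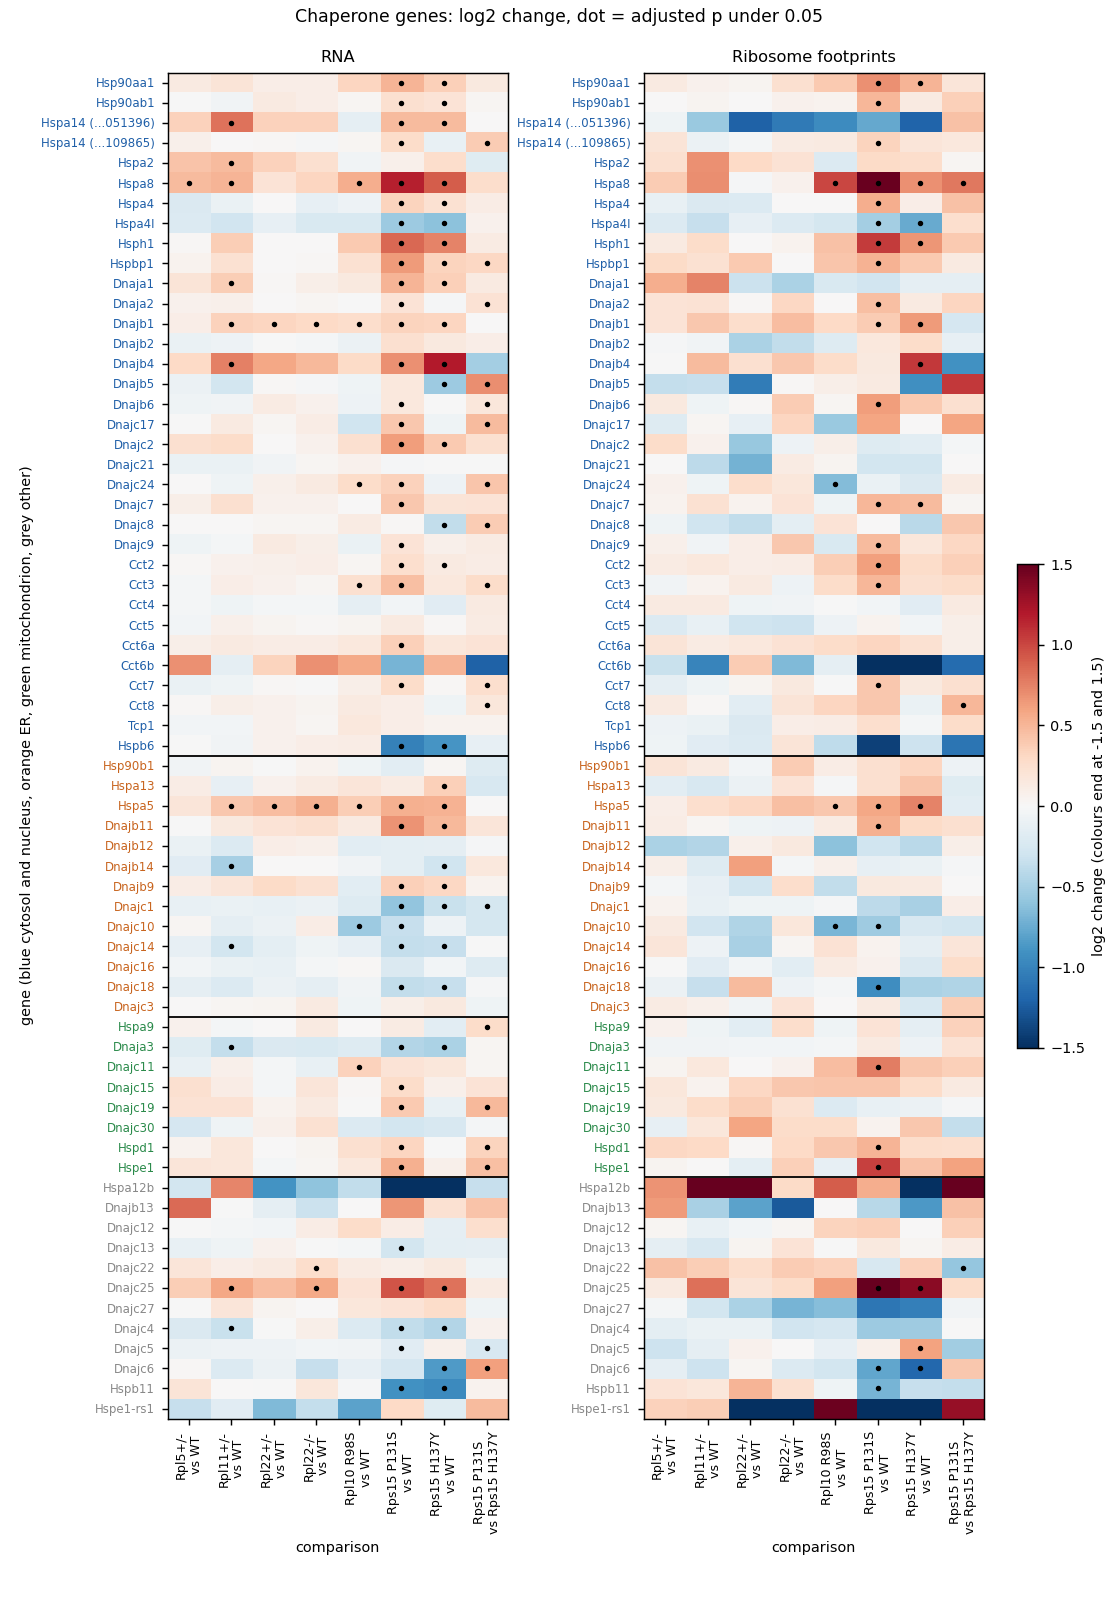
Log2 change in RNA and in footprints of the 67 tested chaperone genes (rows, by compartment) in the 8 comparisons (columns). Colour gives the change and a dot marks a call. Dots are densest in the RNA columns of Rps15 P131S, with 41 calls, and Rps15 H137Y, with 29.

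HSP90 is the chaperone of late-folding clients such as kinases and steroid receptors, and both cytosolic forms rose in the Rps15 genotypes. Hsp90aa1, the stress-inducible form, measured 1582, 1749 and 1519 CPM of RNA in the WT clones, 2038, 2105 and 2786 in Rps15 P131S and 1965, 2361 and 1916 in Rps15 H137Y. Every mutant clone stood above every WT clone. The changes were 0.51 (SE 0.11, adjusted p = 0.000699) and 0.36 (SE 0.11, adjusted p = 0.0112). The H137Y call was lost without H137Y clone 6 (0.26, adjusted p = 0.0743) or WT clone 1 (0.32, adjusted p = 0.0538). In footprints Hsp90aa1 went from 4351, 4975 and 5108 CPM in WT to 6607, 7579 and 8986 in P131S and 6751, 5908 and 7852 in H137Y, again without overlap. These were changes of 0.68 (SE 0.14, adjusted p = 0.00245) and 0.51 (SE 0.14, adjusted p = 0.0245), and the H137Y call was lost when any clone but H137Y clone 6 was left out, with adjusted p up to 0.122.

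Hsp90ab1, the constitutive form, changed less. Its RNA was 3719, 3849 and 3685 CPM in WT, 4366, 4392 and 4488 in P131S and 4148, 4635 and 4218 in H137Y, with changes of 0.24 (adjusted p = 0.00148) and 0.21 (adjusted p = 0.00444). Its footprints rose by 0.50 in P131S (adjusted p = 0.00317), while the H137Y change of 0.14 was not called (adjusted p = 0.472). Hsp90b1, the ER form, was called in neither, at -0.16 and 0.03 in RNA and 0.24 and 0.32 in footprints.

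Hspa8, the constitutive cytosolic HSP70 that folds nascent chains and uncoats clathrin, had the largest rise of any chaperone gene in Rps15 P131S RNA. Its RNA measured 978, 1075 and 1055 CPM in WT (1036 ± 51, SD, 3 clones), 1883, 2212 and 2899 in P131S and 1694, 2301 and 1829 in H137Y. The lowest Rps15 clone was well above the highest WT clone, and the folds were 2.25 and 1.87 (log2 1.17 and 0.91, SE 0.11 each, adjusted p = 1.94e-07 and 3.89e-06). A further 3 genotypes were called. Hspa8 RNA was 1467, 1512 and 1531 CPM in Rpl10 R98S (0.54, adjusted p = 0.00403), 1431, 1372 and 1626 in Rpl11+/- (0.51, adjusted p = 0.00639) and 1480, 1423 and 1443 in Rpl5+/- (0.48, adjusted p = 0.0409). The Rpl5+/- call was lost whichever clone was left out, with changes of 0.44 to 0.51 and adjusted p of at least 0.0986. The Rpl22+/- clones at 1176, 1198 and 1211 CPM and the Rpl22-/- clones at 1268, 1343 and 1271 lay above all WT clones too, but their changes of 0.21 and 0.32 were not called.

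In footprints Hspa8 differed between the 2 Rps15 changes in the fit of all genotypes. The WT clones had 833, 1238 and 942 CPM, the P131S clones 2012, 2709 and 3673, and the H137Y clones 1718, 1514 and 1636. P131S rose by 1.48 (SE 0.19, adjusted p = 5.72e-05) and H137Y by 0.69 (SE 0.19, adjusted p = 0.0204), and the direct difference of 0.79 was called (adjusted p = 0.0201). In RNA the same difference was 0.26 and not called (adjusted p = 0.0922). The footprint difference was lost without P131S clone 20 (0.56, adjusted p = 0.141), H137Y clone 6 (0.76, adjusted p = 0.0786) or H137Y clone 2 (0.82, adjusted p = 0.0584). It was also lost with these 2 genotypes alone in the fit (0.77, adjusted p = 0.169). The H137Y rise itself was lost without H137Y clone 16 (0.66, adjusted p = 0.0699), H137Y clone 2 (0.69, adjusted p = 0.0545), WT clone 3 (0.58, adjusted p = 0.111) or WT clone 1 (0.65, adjusted p = 0.0928). Rpl10 R98S footprints of Hspa8, at 1767, 2148 and 2120 CPM, stood above all WT clones and rose by 1.00 (SE 0.19, adjusted p = 0.00965), lost without R98S clone A29 (0.95), WT clone 3 (0.88) or WT clone 1 (0.95).

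The inducible cytosolic HSP70 genes were all but silent. Hspa1a had at most 2 counts in any RNA library and 0 in every footprint library, and Hspa1b at most 1 and 9, so neither was tested. Hspb1, the small heat shock protein that is a standard mark of the heat shock response, had 0 counts in all 48 libraries. With Hspa1a, Hspa1b and Hspb1, 18 members were not tested. The others were Cct8l1, Dnaja4, Dnajb3, Dnajb7, Dnajb8, Dnajc28, Dnajc5b, Dnajc5g, Hspa12a, Hspa1l, Hspb2, Hspb3, Hspb7, Hspb8 and Hspb9. Of these Dnajc5g reached 208 footprint counts in 1 library and was above 0 in 5.

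**Figure D3:**
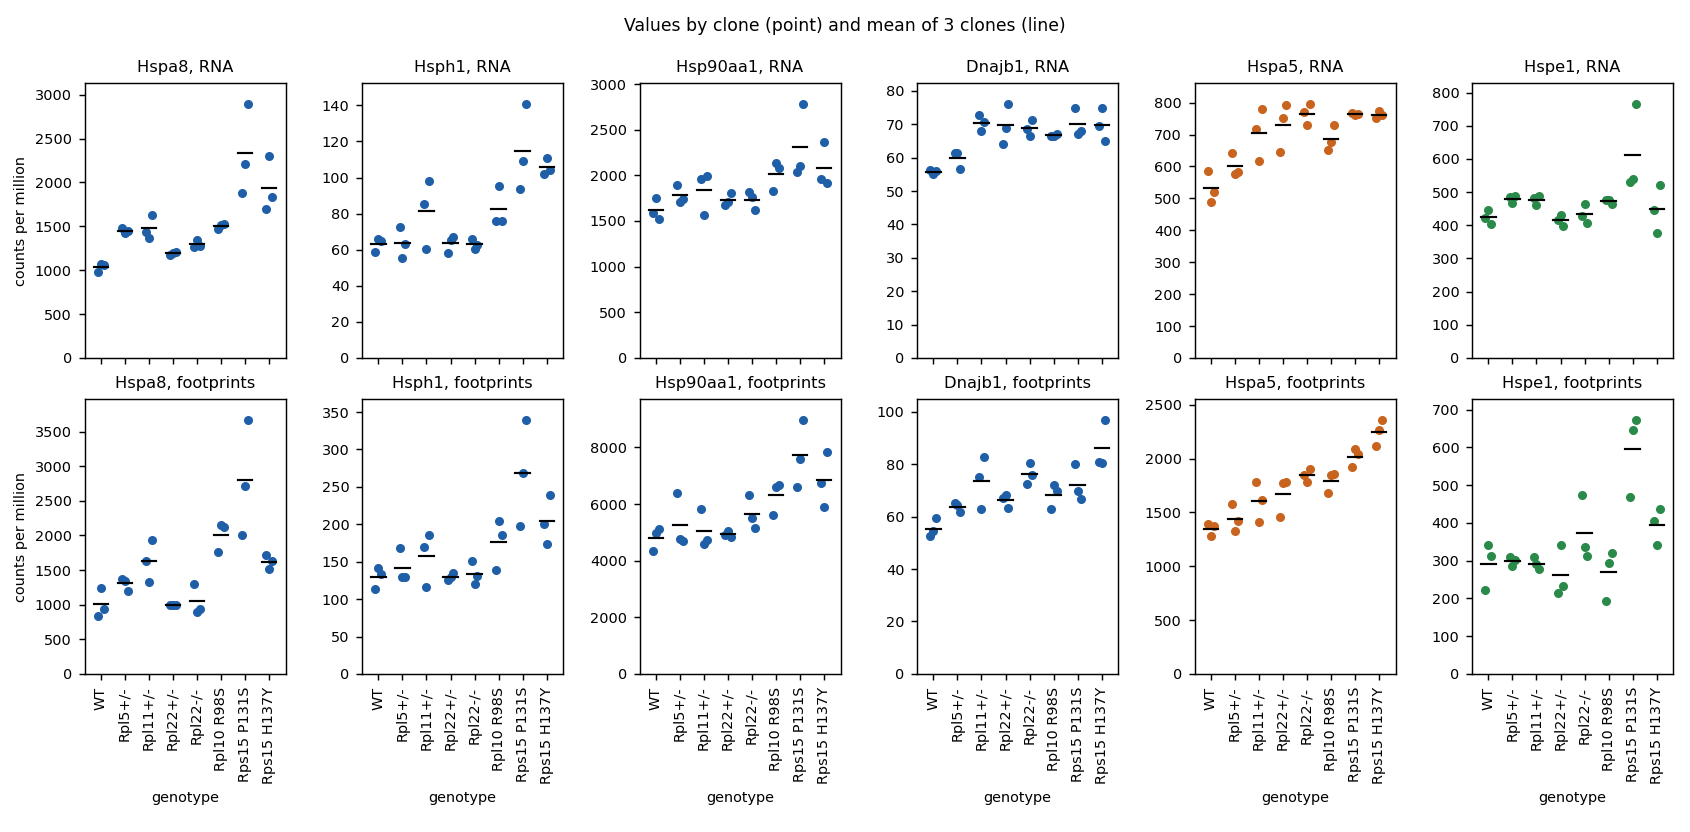
Level in each clone (vertical axis, CPM) of Hspa8, Hsph1, Hsp90aa1, Dnajb1, Hspa5 and Hspe1 by genotype (horizontal axis), RNA in the upper row and footprints in the lower, with a line at the mean of 3 clones. Hspa8 RNA lies at 978 to 1075 CPM in WT and at 1694 to 2899 in the Rps15 clones. Hspe1 RNA lies at 531 to 767 CPM in Rps15 P131S, and the Rps15 H137Y clones, at 378 to 520, overlap WT.

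The HSP110 proteins, which release nucleotide from HSP70, moved in both directions in the Rps15 genotypes. Hsph1 (HSP105), whose promoter stretch above holds a heat shock element, had 58.6, 65.7 and 64.7 CPM of RNA in WT, 93.6, 109 and 141 in P131S and 102, 111 and 104 in H137Y. Its folds were 1.82 (log2 0.86, SE 0.15, adjusted p = 0.00013) and 1.68 (log2 0.74, SE 0.15, adjusted p = 0.000631), with no overlap of clones. Its footprints were 113, 142 and 134 CPM in WT, 198, 269 and 340 in P131S and 201, 174 and 239 in H137Y. They rose by 1.05 (adjusted p = 0.000928) and 0.66 (adjusted p = 0.0312), and the H137Y footprint call was lost when any clone but H137Y clone 6 was left out, with changes between 0.54 and 0.74. Hspa4 rose less, by 0.33 in P131S RNA (adjusted p = 0.00193), 0.23 in H137Y RNA (adjusted p = 0.0292) and 0.55 in P131S footprints (adjusted p = 0.00707). Its H137Y RNA call was lost without H137Y clone 6 (0.12), WT clone 3 (0.23) or WT clone 1 (0.19), and its P131S footprint call without clone 20 (0.44, adjusted p = 0.0656). Hspa4l, the third of the family, fell by 0.54 and 0.61 in RNA (adjusted p = 0.000223 and 8.23e-05). Hspbp1, another exchange factor of HSP70, rose by 0.64 in P131S RNA (adjusted p = 1.48e-05) and 0.33 in H137Y RNA (adjusted p = 0.00776), with P131S higher than H137Y by 0.31 (adjusted p = 0.0166, lost without P131S clone 20 at 0.22 or H137Y clone 6 at 0.27). Its P131S footprints rose by 0.52 (adjusted p = 0.0381), a call lost without P131S clone 20 (0.32), WT clone 2 (0.47) or WT clone 1 (0.54). Hspa4l footprints fell by 0.76 in H137Y (adjusted p = 0.0051).

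J proteins deliver clients to HSP70, and of the 7 tested members of types A and B that serve the cytosol, 5 rose in P131S RNA, while 3 rose and 1 fell in H137Y RNA. Over all genes, 23.7% rose in P131S RNA, and 21% rose and 20% fell in H137Y RNA. Dnajb1 (HSP40), the partner of Hspa8 in refolding, lay in a narrow band of 55.1 to 56.3 CPM of RNA in WT and of 64.1 to 76.2 CPM in the clones of the 6 genotypes in which it was called. It rose by 0.33 in P131S (adjusted p = 0.000458), 0.32 in H137Y (adjusted p = 0.000626) and 0.34 in Rpl11+/- (adjusted p = 0.00319), and by 0.32, 0.30 and 0.26 in Rpl22+/-, Rpl22-/- and Rpl10 R98S (adjusted p = 0.00639, 0.0095 and 0.0151). The last 3 calls depended on single clones, being lost without Rpl22+/- clone 60 (0.25, adjusted p = 0.0511), without Rpl22-/- clone 776 (0.27, adjusted p = 0.0527), and without R98S clone A29 (0.26, adjusted p = 0.0505) or WT clone 2 (0.25, adjusted p = 0.0564). Rpl5+/- clones at 61.5, 61.3 and 56.7 CPM also exceeded WT, by 0.10, which was not called (adjusted p = 0.524). Dnajb1 footprints were 52.4, 54.4 and 59.3 CPM in WT, 80.7, 80.4 and 97 in H137Y and 80.1, 69.6 and 66.6 in P131S, a rise of 0.64 in H137Y (adjusted p = 0.000638) and 0.38 in P131S (adjusted p = 0.0172). The P131S footprint call was lost without P131S clone 24 (0.33) or WT clone 3 (0.37).

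Dnaja1, a farnesylated partner of Hspa8, rose in Rps15 RNA, while its footprints were not called. Its RNA measured 140, 145 and 142 CPM in WT, 177, 194 and 235 in P131S and 178, 198 and 173 in H137Y, with changes of 0.51 (adjusted p = 0.000475) and 0.36 (adjusted p = 0.00802). The footprint values of 160, 153 and 209 CPM in P131S and 183, 202 and 191 in H137Y overlapped the WT values of 184, 187 and 264. In Rpl11+/- RNA it was 0.37 higher (adjusted p = 0.0253), a call lost without any clone but Rpl11+/- clone 414. Dnajb4, a close relative of Dnajb1, went from 13, 10.9 and 13.3 CPM of RNA in WT to 21.4, 20.2 and 18 in P131S (0.68, adjusted p = 0.0155) and 34.6, 14.7 and 35.5 in H137Y (1.19, adjusted p = 0.000272), where clone 6 stood apart from the other two. Its P131S call was lost without WT clone 2 (0.60, adjusted p = 0.0644). Footprints of Dnajb4 rose in H137Y by 1.06 (adjusted p = 0.0132), a call lost without H137Y clone 2 (0.88) or WT clone 3 (0.90). Dnajb4 RNA was also 0.76 higher in Rpl11+/- (adjusted p = 0.0308), a call lost without Rpl11+/- clone 22 (0.55) or any WT clone (0.67 to 0.81). Dnajb6, a suppressor of protein aggregation whose promoter holds a heat shock element, rose by 0.16 in P131S RNA (adjusted p = 0.0193) and 0.63 in P131S footprints (adjusted p = 0.0142). Both calls were lost without clone 20 (0.15 and 0.62) and at least 1 other clone. Dnajb5 fell by 0.55 in H137Y RNA (adjusted p = 0.0254), a call lost without H137Y clone 16 (-0.35) or WT clone 2 (-0.46).

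Type C J proteins, which share little beyond the J domain, split by gene. Of the 25 tested, 8 rose and 7 fell in P131S RNA, and 2 rose and 6 fell in H137Y RNA, where 47% and 41% of all genes were called. Dnajc25, a transmembrane J protein, had the largest rise, from 9.35, 9.7 and 11.5 CPM of RNA in WT to 17.8, 17 and 23.7 in P131S and 19.2, 15.7 and 18.9 in H137Y (0.94 and 0.81, adjusted p = 1.51e-05 and 8.3e-05). Its footprints, few in all clones, rose from 1.61, 1.75 and 1.44 CPM to 4.97, 3.97 and 5.83 in P131S (1.62, adjusted p = 0.0019) and 4.56, 4.48 and 3.24 in H137Y (1.35, adjusted p = 0.0103; 1.28 and adjusted p = 0.0517 without WT clone 1). Dnajc25 RNA was also higher in Rpl11+/- by 0.58 (adjusted p = 0.00954) and in Rpl22-/- by 0.57 (adjusted p = 0.0161). The first of these was lost without Rpl11+/- clone 22 (0.46) or WT clone 3 (0.52), and the second without Rpl22-/- clone 30 (0.50), WT clone 3 (0.51) or WT clone 2 (0.54). Dnajc6 (auxilin), which uncoats clathrin vesicles with Hspa8, fell by 0.85 in H137Y RNA (adjusted p = 0.000372), and by 1.18 in H137Y and 0.78 in P131S footprints (adjusted p = 0.00103 and 0.0123). The P131S footprint fall was lost without clone 63 (-0.69) or clone 20 (-0.67). Dnajc7, a co-chaperone that bridges HSP70 and HSP90, rose by 0.40 in P131S RNA (adjusted p = 0.00202) and 0.50 in P131S footprints (adjusted p = 0.00555), both kept whichever clone was left out. Its H137Y footprints rose by 0.48 (adjusted p = 0.0117), lost without H137Y clone 2 (0.39) or WT clone 3 (0.40). Dnajc5, the cysteine string protein of secretory vesicles, rose in H137Y footprints by 0.60 (adjusted p = 0.0325), lost without H137Y clone 6 (0.61) or 2 (0.55) or WT clone 2 (0.52) or 1 (0.58). Dnajc2 and Hspa14, the pair that forms the ribosome-associated chaperone complex at the exit tunnel, are given with the ratios below.

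TRiC folds actin and tubulin in a double ring of 8 different subunits, and its genes moved unevenly. In P131S RNA 4 of the 9 entries tested rose and 0 fell, so 44.4% were called. Over all genes 47% were called, 23.7% higher and 23.4% lower. The 4 were Cct3 by 0.45 (adjusted p = 7.96e-05), Cct6a by 0.36 (adjusted p = 0.00119), Cct7 by 0.27 (adjusted p = 0.00307) and Cct2 by 0.25 (adjusted p = 0.000976). The other subunits were not called, with changes of 0.14 for Cct5, 0.10 for Tcp1, 0.10 for Cct8 and -0.04 for Cct4. The remaining entry, Cct6b, a second form of Cct6a, stood at -0.70 and was not called (adjusted p = 0.3). Cct3 went from 309, 326 and 311 CPM in WT to 390, 409 and 491 in P131S, and Cct2 from 567, 582 and 554 to 652, 654 and 715. Without P131S clone 20 the Cct6a rise was 0.21 (adjusted p = 0.013). In footprints Cct2 rose by 0.62 (from 498, 487 and 457 to 674, 645 and 901 CPM, adjusted p = 0.000797), Cct3 by 0.50 (adjusted p = 0.00378, and 0.33 and 0.0354 without P131S clone 20) and Cct7 by 0.40 (adjusted p = 0.0142, and 0.0922 without P131S clone 20 or 0.056 without WT clone 3). Cct8 missed the threshold at 0.40 (adjusted p = 0.0524).

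In H137Y RNA 1 of the 9 entries was called, where 41% of all genes were, 21% higher and 20% lower. Cct2 RNA was 0.14 higher (adjusted p = 0.0486, lost without any clone but H137Y clone 2). No subunit was called in H137Y footprints, where 11.7% of all genes were. Between P131S and H137Y, 12.6% of all genes were higher in P131S RNA, and 4.17% were called in footprints. Set directly against H137Y, P131S had higher RNA of Cct3 (0.28, adjusted p = 0.00949), Cct7 (0.25, adjusted p = 0.0101) and Cct8 (0.17, adjusted p = 0.0479), and higher Cct8 footprints (0.50, adjusted p = 0.0465). Without P131S clone 20 these differences were 0.18, 0.18, 0.08 and 0.37, and none was called. The Cct7 and Cct8 RNA calls and the Cct8 footprint call were also lost without H137Y clone 16 (0.21, 0.15 and 0.54), the Cct8 RNA call without H137Y clone 2 (0.17), and the Cct8 footprint call without P131S clone 63 (0.55) or H137Y clone 6 (0.40). Cct3 RNA was 0.24 higher in Rpl10 R98S (adjusted p = 0.042), a call lost whichever clone was left out, with changes of 0.19 to 0.27.

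The 2 tested genes that carry the small heat shock protein name both fell in the RNA of the Rps15 genotypes. Over all genes, 23.4% fell in P131S RNA and 20% in H137Y RNA. Hspb6 (HSP20), an ATP-independent holder of unfolded clients, went from 11.4, 10.9 and 10.1 CPM of RNA in WT to 5.88, 5.23 and 4.95 in P131S and 5.86, 5.4 and 6.25 in H137Y. Its level fell by 1.01 (SE 0.13, adjusted p = 3.28e-06) and 0.89 (SE 0.13, adjusted p = 1.61e-05). Hspb11 carries the family name but is known as a subunit of the intraflagellar transport machinery. Its RNA went from 20.5, 20.8 and 18.5 CPM to 12.7, 10.7 and 8.5 in P131S and 9.86, 12.3 and 8.52 in H137Y, a change of -0.91 and -0.96 (adjusted p = 0.000283 and 0.0002). Its P131S footprints fell by 0.70 (adjusted p = 0.0299), a call lost without P131S clone 63 (-0.62) or 20 (-0.59) or WT clone 3 (-0.48) or 2 (-0.72). Hspb6 footprints, near 1.01 CPM in P131S and 2.66 in WT, were not called.

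In the ER, Hspa5 (BiP), the lumenal HSP70, which also holds the stress sensors of the ER inactive, rose in all genotypes but Rpl5+/-. Its RNA measured 587, 488 and 520 CPM in WT, 768, 762 and 765 in P131S, 751, 775 and 762 in H137Y, 652, 675 and 731 in R98S, 716, 618 and 779 in Rpl11+/-, 646, 752 and 791 in Rpl22+/- and 769, 730 and 797 in Rpl22-/-. No clone of these 6 genotypes fell to the WT range. The changes were 0.53 in P131S (adjusted p = 3.7e-05), 0.52 in H137Y (adjusted p = 5.46e-05), 0.53 in Rpl22-/- (adjusted p = 0.000587), 0.46 in Rpl22+/- (adjusted p = 0.00265), 0.41 in Rpl11+/- (adjusted p = 0.00396) and 0.37 in R98S (adjusted p = 0.00661). All 6 calls were kept in every alternative run. The Rpl5+/- clones, at 642, 575 and 583 CPM, overlapped WT (0.18, adjusted p = 0.329). In footprints the WT clones had 1391, 1277 and 1372 CPM, the H137Y clones 2113, 2267 and 2362 (0.74, adjusted p = 9.73e-05), the P131S clones 1920, 2085 and 2041 (0.58, adjusted p = 0.000507) and the R98S clones 1681, 1845 and 1854 (0.41, adjusted p = 0.0367). The R98S footprint call was lost whichever clone was left out, with changes of 0.38 to 0.46.

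The rest of the ER set did not rise together. Dnajb11 (ERdj3), a soluble partner of BiP, rose from 85.7, 86.8 and 86.5 CPM of RNA to 129, 133 and 150 in P131S (0.67, adjusted p = 1.1e-06) and 118, 132 and 114 in H137Y (0.49, adjusted p = 4.27e-05), and its footprints by 0.53 in P131S (adjusted p = 0.00453). Dnajb9 (ERdj4) rose by 0.36 in P131S RNA (adjusted p = 0.0196), lost without P131S clone 20 (0.32), WT clone 2 or WT clone 1 (0.33 each), and by 0.31 in H137Y (adjusted p = 0.0457), where the clones overlapped. The H137Y call was lost without H137Y clone 16 (0.25) or 2 (0.18) or WT clone 2 or 1 (0.28 each), and the change was 0.49 without H137Y clone 6. Dnajc3, which like Hspa5 and Hsp90b1 holds an ER stress element in the stretch printed above, was not called, at 0.09 and 0.15. The ER members that fell in P131S RNA were J proteins of the ER membrane or lumen: Dnajc1 by 0.59 (adjusted p = 2.5e-06), Dnajc18 by 0.37 (adjusted p = 0.000474), Dnajc14 by 0.36 (adjusted p = 0.000788) and Dnajc10 by 0.34 (adjusted p = 0.027). The Dnajc10 fall was lost without P131S clone 63 (-0.33) or 20 (-0.36) or without WT clone 3 (-0.31) or 2 (-0.33). Dnajc1, Dnajc18 and Dnajc14 also fell in H137Y, by 0.33, 0.35 and 0.35 (adjusted p = 0.00104, 0.000883 and 0.00127). In P131S footprints Dnajc18 fell by 0.93 (adjusted p = 0.00508) and Dnajc10 by 0.53 (adjusted p = 0.014), the latter lost without P131S clone 20 (-0.45), WT clone 2 (-0.49) or WT clone 1 (-0.48).

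Dnajc10 (ERdj5), a disulphide reductase that helps clear misfolded proteins, was the one chaperone gene that fell in Rpl10 R98S RNA. Its RNA went from 176, 172 and 157 CPM in WT to 109, 116 and 123 in R98S (-0.54, SE 0.12, adjusted p = 0.00723), and its footprints from 118, 123 and 128 to 68.2, 73.2 and 86.6 (-0.69, SE 0.14, adjusted p = 0.0162). Both sets of clones were apart from WT. The footprint call was lost without R98S clone A30 or A29 or without WT clone 2 or 1, with changes of -0.69 to -0.62.

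In Rpl11+/- RNA the largest fall was that of Dnajb14, an ER membrane J protein, by 0.50 (adjusted p = 0.00293). Dnajc14 and Dnajc4 fell by 0.27 and 0.33 (adjusted p = 0.0264 and 0.039), and Hspa2, an HSP70 best known from testis, rose from 4.41 to 4.63 CPM in WT to 6.07 to 6.75 (0.48, adjusted p = 0.0454). These 3 calls were each lost without Rpl11+/- clone 22, among others, at -0.26, -0.27 and 0.50. Dnajc22 rose by 0.26 in Rpl22-/- RNA (adjusted p = 0.0246), a call lost without any clone but Rpl22-/- clone 649, and Dnajc11 rose by 0.34 in Rpl10 R98S RNA (adjusted p = 0.0174), lost without R98S clone A29 (0.31), WT clone 3 or WT clone 1 (0.32 each).

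In the fit of all genotypes, RNA of the mitochondrial chaperonin differed between the 2 Rps15 changes. Hspe1 (HSP10), the lid of the chaperonin, measured 423, 445 and 404 CPM in WT, 531, 539 and 767 in P131S and 447, 378 and 520 in H137Y. P131S stood above WT by 0.53 (SE 0.11, adjusted p = 0.000486) and above H137Y by 0.45 (adjusted p = 0.00461), while H137Y overlapped WT (0.08, adjusted p = 0.588). Without P131S clone 20 these differences were 0.33 (adjusted p = 0.00506) and 0.25 (adjusted p = 0.0463). Hspd1 (HSP60), the barrel, which shares the promoter stretch printed above with Hspe1, measured 419, 434 and 417 CPM in WT, 485, 456 and 644 in P131S and 402, 425 and 435 in H137Y. Its change of 0.32 in P131S (adjusted p = 0.0081) rested on clone 20, without which it was 0.14 (adjusted p = 0.119). The difference from H137Y of 0.33 (adjusted p = 0.0138) was lost without P131S clone 20 (0.16) or H137Y clone 16 (0.30). With these 2 genotypes alone in the fit, the differences from H137Y were called for neither gene. They were 0.44 for Hspe1 (adjusted p = 0.19) and 0.32 for Hspd1 (adjusted p = 0.206).

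In footprints Hspe1 went from 223, 341 and 312 CPM in WT to 470, 646 and 674 in P131S (1.03, SE 0.21, adjusted p = 0.0019), and 404, 342 and 436 in H137Y were not called (0.43, adjusted p = 0.198). Hspd1 footprints went from 477, 540 and 474 CPM to 679, 682 and 762 in P131S (0.51, adjusted p = 0.0186), a call lost without P131S clone 20 (0.45), WT clone 3 (0.51) or WT clone 1 (0.50). Both genes have processed copies in the genome, and how reads shared with them were assigned is not given in the sources used here. Entries named as copies held 0.414% to 31.6% of the summed Hspe1 footprints of a library (median 3.14%) and 3.59% to 27.6% of those of Hspd1 (median 13.4%), against at most 0.355% and 0.731% of RNA. With the copies added to the parent gene, the P131S footprint changes were 0.92 for Hspe1 (adjusted p = 0.00443) and 0.54 for Hspd1 (adjusted p = 0.0274).

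The remaining mitochondrial members went different ways. Hspa9 (mortalin), the matrix HSP70, was called against WT in neither Rps15 genotype (0.12 and -0.16), but its RNA was 0.28 higher in P131S than in H137Y (adjusted p = 0.0284), a call lost without P131S clone 20 (0.15) or H137Y clone 16 (0.23) or 2 (0.27). Dnajc19, a J protein of the inner membrane import motor, rose from 43.9, 45.4 and 43.6 CPM to 52.1, 51.4 and 70.1 in P131S RNA (0.39, adjusted p = 0.00199) and was 0.49 above H137Y (adjusted p = 0.000698). Without P131S clone 20 its rise against WT was 0.22 (adjusted p = 0.027). Dnaja3 (Tid1), the matrix J protein that serves Hspa9, fell from 86.4, 86.6 and 79.7 CPM to 63.6, 56.6 and 65.8 in P131S and 57.8, 67.4 and 56.7 in H137Y. Its RNA changes were -0.44 and -0.47 (adjusted p = 0.000319 and 0.000198), and in Rpl11+/- the change was -0.36 (adjusted p = 0.0105, and -0.27 and 0.0803 without Rpl11+/- clone 22).

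In the direct comparison of the 2 Rps15 changes, the largest called RNA differences beyond the mitochondrial ones were those of Dnajb5 (0.70, adjusted p = 0.0096) and Dnajc6 (0.61, adjusted p = 0.0106). Both were lost without H137Y clone 16 (0.51 and 0.44), and Dnajb5 also without P131S clone 24 (0.55). Dnajc17 and Dnajc8, J proteins linked to the spliceosome, were higher in P131S by 0.47 (adjusted p = 0.00623) and 0.38 (adjusted p = 0.0015). Dnajc24, which serves the diphthamide modification of elongation factor 2, was higher by 0.42 (adjusted p = 0.00115). Dnajc5 and Dnajc1 were the 2 that were lower, by -0.24 and -0.26 (adjusted p = 0.0123 and 0.0131), both lost without P131S clone 20 (-0.18 and -0.23) or H137Y clone 6 (-0.16 and -0.15). In footprints Dnajc22 was lower, at -0.58 (adjusted p = 0.0302), a call lost without any clone but H137Y clone 16. Of the 18 RNA calls between P131S and H137Y, 0 held under all alternatives.

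The ratio of footprints to RNA, often called translational efficiency, changed for few chaperone genes. Tested as the interaction of assay and genotype in edgeR, 2 were higher and 2 lower in Rps15 P131S, where 5.39% of 12074 genes were called, 1 was higher in Rps15 H137Y against 4.28%, and 1 was lower in Rpl10 R98S against 0.364%. With the clone as a replicate block, since both libraries of a clone come from 1 lysate, the count rose to 7 in P131S and 3 in H137Y, adding Dnajc6 (-0.53), Dnajc13 (0.44) and Cct2 (0.38) in P131S and Dnajc5 (0.57) and Dnaja1 (-0.45) in H137Y. No chaperone gene was called between P131S and H137Y (background 1.18%), in Rpl22-/- (0.0414%), in Rpl22+/- (0.00828%), in Rpl5+/- (0%) or in Rpl11+/- (0%). There 8, 5, 7, 1 and 1 had an unadjusted p under 0.05, and limma voom called none. DESeq2 called Dnajc22 between P131S and H137Y and none in the other 4. Hspa8, with the largest RNA rise in P131S, had a ratio change of 0.32 in P131S that was not called (adjusted p = 0.488).

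Dnajc2 (MPP11) is the J protein of the ribosome-associated complex, which helps nascent chains fold. In P131S its RNA rose from 176, 175 and 169 to 232, 249 and 324 CPM (0.63, adjusted p = 4.33e-05), while its footprints were 79.8, 82.7 and 75.7 CPM in WT and 65.7, 75 and 67.9 in P131S. The log2 ratio was -1.14, -1.08 and -1.16 in the WT clones and -1.82, -1.73 and -2.25 in the P131S clones, a change of -0.80 (SE 0.16, adjusted p = 0.00196) that was called in every alternative. Its HSP70 partner Hspa14, on the identifier ENSMUSG00000109865, rose in P131S by 0.27 in RNA (adjusted p = 0.00255, and 0.18 and 0.0303 without P131S clone 20) and 0.33 in footprints (adjusted p = 0.0273, lost without P131S clone 20 or WT clone 3). The second Hspa14 identifier, ENSMUSG00000051396, is named Gm45902 in the table of gene names and held 7.12 to 7.94 CPM of WT RNA against 102 to 107 for the first. Its RNA was higher in Rpl11+/- by 0.82 (adjusted p = 0.00726, and 0.46 and 0.0794 without Rpl11+/- clone 22), in P131S by 0.48 (adjusted p = 0.039) and in H137Y by 0.47 (adjusted p = 0.0474), and both Rps15 calls were lost whichever clone was left out.

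**Figure D4:**
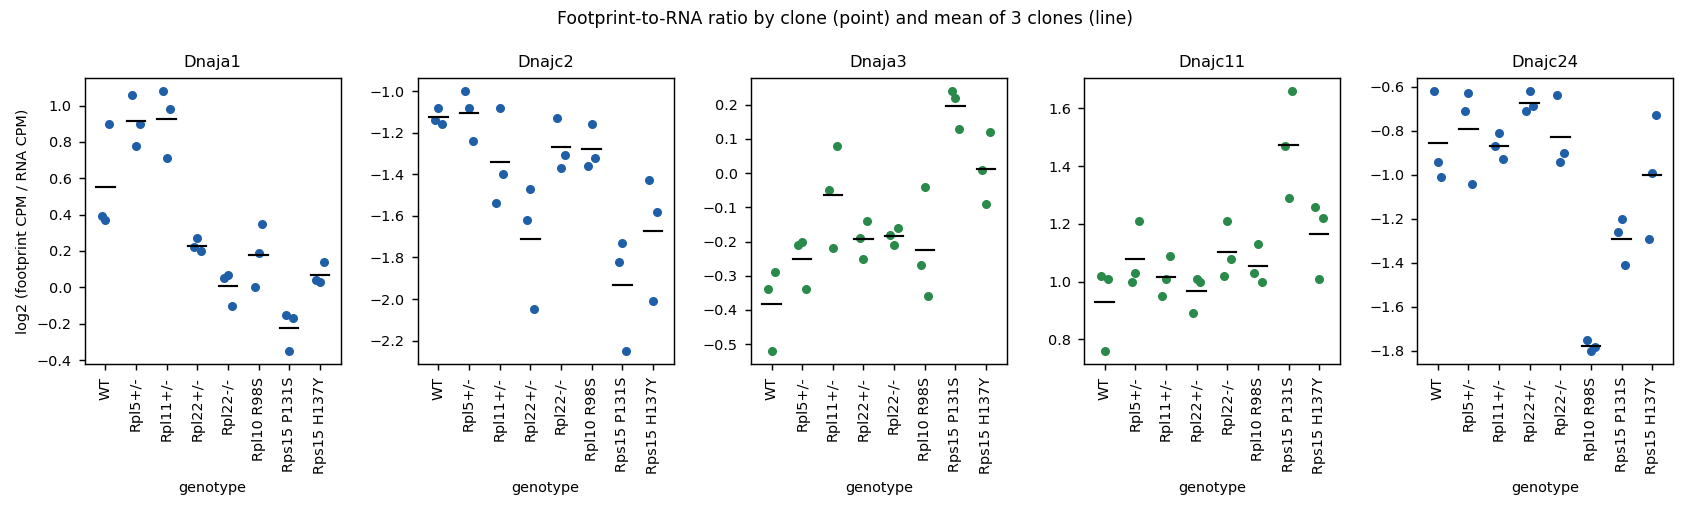
Log2 ratio of footprint CPM to RNA CPM in each clone (vertical axis) by genotype (horizontal axis) for the 5 chaperone genes with a called ratio change, with a line at the mean of 3 clones. Dnajc2 and Dnaja1 lie lower in Rps15 P131S than in WT, Dnaja3 and Dnajc11 higher, and Dnajc24 lies at -1.80 to -1.75 in Rpl10 R98S.

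Dnaja3 went the other way. Its RNA fell in both Rps15 genotypes, as given above, while its footprints were 68.4, 60.4 and 65.3 CPM in WT, 75, 65.9 and 72.2 in P131S and 58.3, 63.5 and 61.5 in H137Y. The log2 ratio was -0.34, -0.52 and -0.29 in WT, 0.24, 0.22 and 0.13 in P131S and 0.01, -0.09 and 0.12 in H137Y, with no overlap. The change of 0.60 in P131S (SE 0.12, adjusted p = 0.00248) was called in every alternative. That of 0.43 in H137Y (SE 0.12, adjusted p = 0.0391) was lost when any clone but H137Y clone 6 was left out, with changes of 0.37 to 0.45.

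Dnaja1 and Dnajc11 gave less stable changes of the ratio in P131S. The log2 ratio of Dnaja1 was 0.39, 0.37 and 0.90 in WT, where clone 1 stood apart, and -0.15, -0.35 and -0.17 in P131S (-0.77, SE 0.21, adjusted p = 0.0226). Without WT clone 1 the change was -0.60 (adjusted p = 0.167), and without P131S clone 63 it was -0.70 (adjusted p = 0.0821). Dnajc11, a protein of the outer mitochondrial membrane that contacts the cristae organising complex, had ratios of 1.02, 0.76 and 1.01 in WT and 1.47, 1.29 and 1.66 in P131S (0.59, SE 0.16, adjusted p = 0.0266). Its call was lost without P131S clone 20 (0.47) or any WT clone (0.53 to 0.63). Dnajc11 footprints rose from 133, 120 and 133 to 194, 177 and 288 CPM (0.77, adjusted p = 0.000781).

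In Rpl10 R98S the ratio changed for Dnajc24. Its RNA rose from 19.2, 21.2 and 19.8 CPM in WT to 23.5, 25.7 and 23.8 in R98S (0.28, adjusted p = 0.0353), and its footprints went down from 12.5, 11.1 and 9.87 to 6.99, 7.41 and 6.96 CPM (-0.65, adjusted p = 0.0367). RNA and footprints thus moved in opposite directions, each without overlap with WT, although both calls were lost whichever clone was left out (0.24 to 0.32 and -0.73 to -0.56). The log2 ratio was -0.62, -0.94 and -1.01 in WT and -1.75, -1.80 and -1.78 in R98S, a change of -0.90 (SE 0.17, adjusted p = 0.00458) that was lost without WT clone 3 (-0.80, adjusted p = 0.0769).

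**Figure D5:**
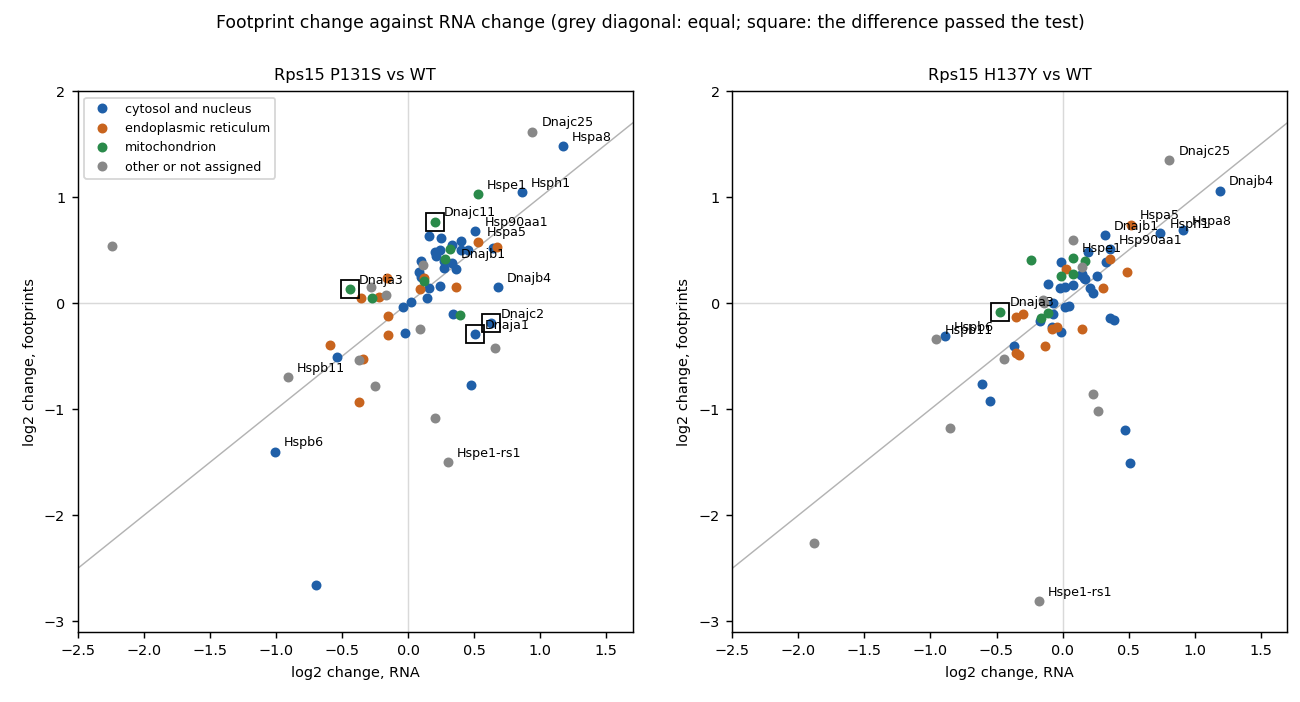
Log2 change in footprints (vertical axis) against log2 change in RNA (horizontal axis) of the 67 chaperone genes in Rps15 P131S and Rps15 H137Y against WT, each point a gene coloured by compartment and a square where the ratio change was called. Hspa8 lies at 1.17 and 1.48 in P131S and at 0.91 and 0.69 in H137Y, and Dnajc2 at 0.63 and -0.19 in P131S lies below the diagonal.

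Genes that work with the chaperones were counted from a list of co-chaperones, heat shock factors, ER folding genes and mitochondrial partners, of which 55 were tested. In P131S RNA 23 rose and 9 fell, 58.2% of the list against 47% of all genes, with 16 higher and 1 lower among 26 cytosolic co-chaperones and 4 higher and 5 lower among 17 ER folding genes. In H137Y RNA 12 rose and 6 fell, 32.7% of the list against 41% of all genes, with 7 higher and 1 lower of the co-chaperones. Pfdn6, a subunit of prefoldin, which hands clients to TRiC, rose by 0.65 in P131S RNA. The largest falls were those of Ddit3 (CHOP), the transcription factor of prolonged ER stress, from 29.7 CPM in WT to 4.11 in P131S (-2.86, adjusted p = 1.89e-06) and by 2.94 in H137Y, and of Xbp1, a transcription factor of the unfolded protein response, from 305 CPM to 118 in P131S (-1.37, adjusted p = 2.71e-06) and by 1.15 in H137Y. Ddit3 also fell by 1.25 in R98S (adjusted p = 0.00962, lost without R98S clone A29 or WT clone 3, at -1.09 each), while Hspa5 was higher in all 3 genotypes. Hsf1, the factor that binds heat shock elements, was 0.39 higher in P131S RNA and 0.22 higher in H137Y RNA with footprints lower by -0.80 and -0.76, and its ratio fell by 1.16 and 0.94 (adjusted p = 0.00113 and 0.00962, the second -0.91 and 0.0535 without WT clone 3). The Hsf1 footprint calls were lost in 4 of 6 leave-one-out fits in P131S and in 5 of 6 in H137Y, with changes down to -0.56 and -0.57, and its H137Y RNA call in 3 of 6.

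The mitochondrial exchange factors of this list moved apart in P131S, with Grpel1 higher by 0.60 in RNA (adjusted p = 5.6e-06) and 0.86 in footprints, and Grpel2 lower by -0.98 in RNA (adjusted p = 3.67e-08) and by -0.83 in H137Y RNA. Vbp1, a prefoldin subunit, fell by 0.73 in H137Y RNA (adjusted p = 3.27e-08). Between P131S and H137Y, 14 of the 55 were higher and 2 lower in P131S RNA, where 25.2% of all genes were called, 12.6% in each direction. Of the 14, 9 were cytosolic co-chaperones such as Ppid (0.62) and the prefoldin subunits Pfdn4 (0.64, and 0.39 without P131S clone 20) and Vbp1 (0.62). The Ppid and Pfdn4 calls were lost when the fit held these genotypes alone (0.61 and 0.62). In footprints 17 rose and 4 fell in P131S, 38.2% of the list against 16.7% of all genes, and 5 rose and 8 fell in H137Y, 23.6% against 11.7%. Stip1 (HOP), which links HSP70 to HSP90, and Manf, a secreted ER protein, were the 2 called in R98S footprints, higher by 0.52 and 0.48 (adjusted p = 0.0143 and 0.0203), each lost in at least 4 of the 6 leave-one-out fits, with changes of 0.43 to 0.58 over all of these fits.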

How the data were processed

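RNA and ribosome footprints were measured in 24 Ba/F3 clones, 48 libraries in all. The authors deposited 1 table of estimated counts per Ensembl gene, not normalized, with decimal fractions. The submitters' processing notes name STAR 2.6.1d, Salmon 1.4.0, DESeq2 1.30 and GRCm38 without their roles. Which feature was counted, and what was done with multiply mapping reads, is not given in the sources used here. Columns were matched to libraries by the names in the labels, and 0 columns were left unused.

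Counts were rounded and tested with edgeR 4.0.16 (R 4.3.3) by its quasi-likelihood test: genes kept by filterByExpr with a minimum count of 10, trimmed mean of M values scaling, robust dispersions, 24 libraries of an assay in 1 fit, two-sided, with Benjamini-Hochberg adjustment over all genes of a comparison and a threshold of 0.05. The ratio was tested as the interaction of assay and genotype over 48 libraries. SE is the size of the log2 change divided by the square root of F. Some of the cell type markers are not reported here. An exact permutation test of 3 against 3 clones cannot give less than p = 0.1, so none is reported. On simulated data with 200 genes changed by a log2 of 1 in Rps15 P131S, the fits recovered 100% in RNA (12400 genes tested), 92% in footprints (14973) and 75% for the ratio (11588). Of the simulated calls, 5.21%, 2.65% and 6.83% in the same order were false. The changed genes were well counted in every library and the spread was a set value. Smaller changes, such as most of those given here, were not simulated. No libraries of a group were duplicates: at most 3.46% of their values were equal.

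The labels say that each lysate was divided, and deviations from the group mean of the RNA and footprint library of a clone correlated across 12074 genes (r from 0.172 to 0.581 in 24 of 24 pairs, against -0.484 to -0.013 for different clones), so clones pair the libraries.

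The members and lists were chosen with earlier results of these data known. Named genes are a fixed set of main chaperones, then up to 8 further called members per comparison with the largest change and no overlap of clones, and up to 4 of the other folding genes. Others are named where they fill a count of 5 or fewer or complete a group, and these were chosen after their values were seen. Alternatives were DESeq2 size factors, DESeq2 1.42.0, limma voom (limma 3.58.1) on unrounded counts, no filter, a filter over all libraries, a fit of the compared genotypes alone, a replicate block for the clone, each clone left out, and, chosen after seeing the data, named copies added to their gene.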

Additional observations from a re-analysis of the deposited data

Results flagged for a closer look

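The footprint change differed from the RNA change of the same gene, by the interaction test, in 6 pairs of gene and comparison that cover 5 chaperone genes. In Rps15 P131S against WT the log2 change of footprints beyond that of RNA was -0.80 for Dnajc2, -0.77 for Dnaja1, 0.60 for Dnaja3 and 0.59 for Dnajc11. In Rps15 H137Y it was 0.43 for Dnaja3, and in Rpl10 R98S it was -0.90 for Dnajc24. The changes of Dnajc2 and Dnaja3 in P131S were called under every alternative, and the other 4 were not.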

How the results depend on the processing

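No called change of a chaperone gene reversed its direction under any alternative run. Called under all of them were 32 of 41 members in Rps15 P131S RNA, 21 of 29 in Rps15 H137Y RNA, 11 of 26 in P131S footprints and 4 of 11 in H137Y footprints. The footprint calls in Rpl10 R98S (0 of 4) and all calls between P131S and H137Y (0 of 18 in RNA, 0 of 3 in footprints) did not hold under all. Leaving out each clone in turn gave these ranges of members called in RNA: 33 to 41 in P131S, 23 to 29 in H137Y, 8 to 27 between P131S and H137Y, 3 to 5 in R98S, 2 to 4 in Rpl22-/-, 1 to 2 in Rpl22+/-, 4 to 19 in Rpl11+/- and 0 to 0 in Rpl5+/-. In footprints they were 0 to 2 in Rpl11+/-, 0 to 2 in Rpl22+/-, 0 to 2 in R98S, 15 to 26 in P131S, 5 to 10 in H137Y and 0 to 6 between the Rps15 changes. For the ratio they were 0 to 2 in Rpl22+/-, 0 to 1 in R98S, 2 to 4 in P131S and 0 to 1 in H137Y. Fitting the 2 compared genotypes alone gave 14 in Rpl5+/- RNA, 5 in Rpl11+/-, 8 in Rpl22+/-, 9 in Rpl22-/-, 25 in R98S and 0 between P131S and H137Y, 0 in the footprints of the last, and 0 for the H137Y ratio. Without a filter the counts were 0 in Rpl5+/- RNA and 1 in Rpl22+/- footprints. DESeq2 called 3 in Rpl11+/- footprints, 2 in Rpl22+/-, 2 in Rpl22-/-, 7 in R98S and 8 between the Rps15 changes, and for the ratio 2 in H137Y and 1 between them. Limma voom called 1 in Rpl22-/- footprints. A filter over all 48 libraries left 0 for the H137Y ratio. With the replicate block, which pairs the libraries of a clone, the ratio calls were 7 in P131S and 3 in H137Y, and no other count moved by over 1.5 times. Adding named copies to their gene ended 1 call, the Dnaja3 ratio in H137Y (0.40, adjusted p = 0.0556). The cause of these differences was not tested. Depth limits what can be said of the 18 untested members and of genes with few footprints such as Dnajc25.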
